A study of Mus musculus with 30 samples.

Results

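The comparison set mammary tumour cells grown in BALB/c mice against the same cells grown in NSG mice. It used 10 of the 30 libraries of the series, 5 for each host, chosen by the site, day and host in their titles, and every gene with enough counts to be tested, which came to 17774 of the 49315 genes in the count table. Every library came from 4T1-tdTomato, a line of BALB/c mammary carcinoma cells that carries a red fluorescent protein. BALB/c mice therefore share the strain of the line and have a working immune system, while NSG mice are a strain without T, B and NK cells.

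In both groups female mice received 200000 cells into a mammary fat pad; no drug treatment is named, and the age is not given in the sources used here. The tumours were digested with collagenase and DNase, and single cells that were DAPI-negative (alive), CD45-negative (not leukocytes) and tdTomato-positive were sorted for RNA. The 5 BALB/c tumours were taken at day 21 (replicates 1 and 2, title number 8) or day 22 (replicates 3, 4 and 5, title number 9). All 5 NSG tumours were taken at day 10 and share title number 36. Host strain, the day after implantation and the title number therefore cannot be told apart, and each difference below is one between these 2 sets of tumours. Nothing states that the 5 libraries of a group are 5 animals, so p-values measure the spread between libraries, which may be technical. That spread was estimated for each gene over all 30 libraries of the series, lung libraries included.

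Interferon-gamma, made mainly by T and NK cells, binds its receptor on tumour cells, and the signal switches on genes of antigen presentation and cell-autonomous defence. One target is Ciita, the master regulator of MHC class II genes, which most carcinoma cells otherwise keep silent. MHC class I molecules show peptides from inside the cell to CD8 T cells, class II molecules show peptides to CD4 T cells, and Fas is the death receptor through which Fas ligand on lymphocytes can trigger apoptosis.

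Total counts ran from 29832098 to 65621525 per tumour library. Libraries detected 19985 to 21818 genes except BALB/c replicate 4 (17517) and NSG replicates 2 and 3 (18593 and 19049). BALB/c replicate 4 also stood apart in its correlation of log2 CPM with the rest of its group (mean r 0.895, against 0.950 to 0.953 for the others). CPM, the level used below, is a gene count divided by its TMM-scaled library size, in the usual CPM unit. The 8 tumour cell markers, keratins among them, summed to 8472 to 11565 CPM in BALB/c and 13337 to 15115 CPM in NSG tumours. Ptprc, which encodes the CD45 that the sort excluded, had 14 to 303 counts in BALB/c and 7 to 75 in NSG libraries.

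Other cell types left a small and uneven trace. The 16 macrophage and monocyte markers summed to 33.3, 39.3, 60.9, 182 and 136 CPM in BALB/c replicates 1 to 5 and to 26.3 to 51.6 CPM in NSG tumours, with no marker at 0 over a whole group. T cell markers (15 genes) summed to 4.41 to 9.09 CPM in BALB/c and 6.40 to 9.87 CPM in NSG tumours. NK markers (13 genes) summed to 0.866 to 3.78 and 1.35 to 1.99 CPM, and 3 of these genes had no count in any BALB/c library and 6 in any NSG library. B and plasma cell markers (9 genes) summed to 0.404 to 15.3 and 0.464 to 0.967 CPM, the highest in BALB/c replicate 4. That library was also highest for skeletal muscle markers at 832 CPM, against 48.1 CPM in the lowest BALB/c tumour and up to 215 CPM in NSG tumours. Neutrophil markers (12 genes, mostly Ltf) summed to 19.8 to 219 CPM in BALB/c and 8.40 to 16.3 CPM in NSG tumours. Fibroblast markers (12 genes, C3 the most abundant) summed to 821 to 1544 and 431 to 528 CPM. In bulk RNA, fewer cells of a type and less RNA per cell cannot be told apart.

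**Figure D1:**
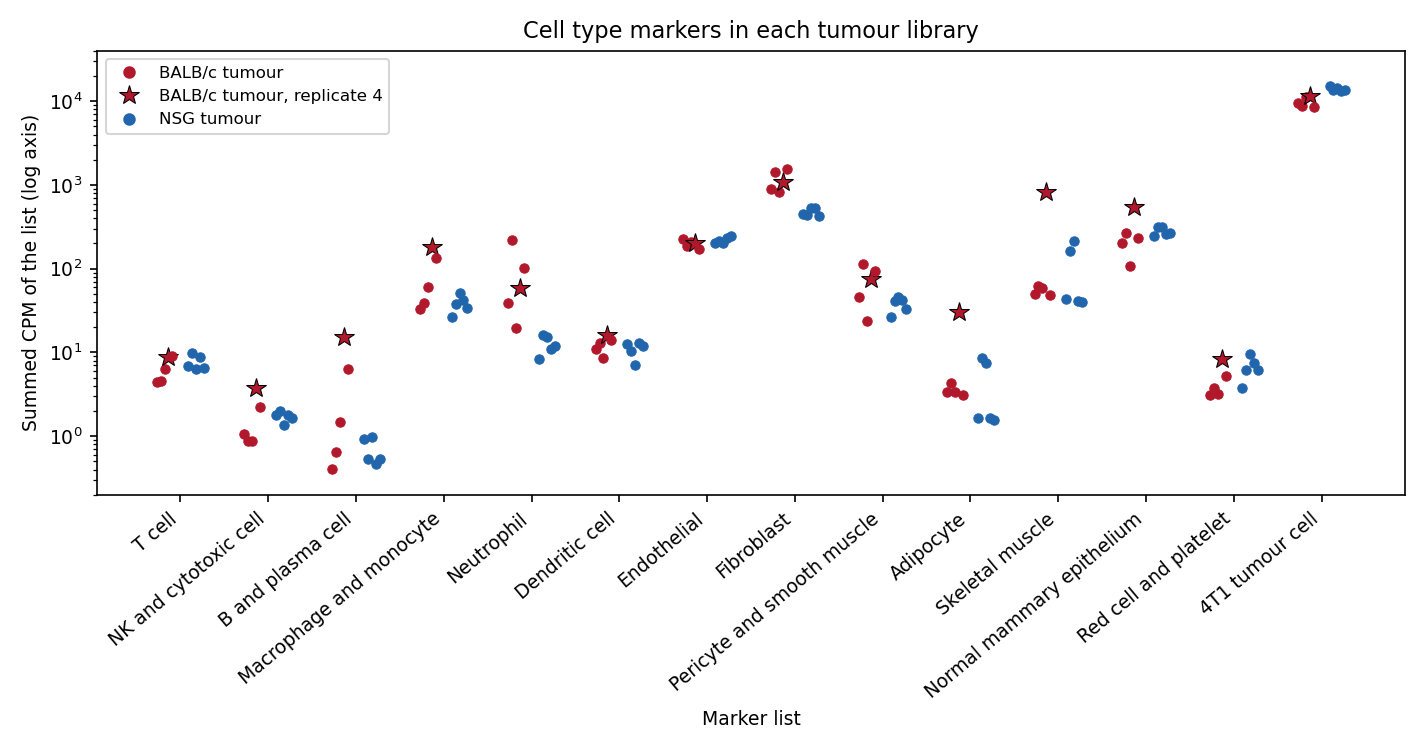
Summed CPM (log axis) of each list of cell type markers in the 10 tumour libraries, 1 point per library, with BALB/c replicate 4 as a star. T cell and dendritic cell markers overlap between hosts, and the star stands above all other libraries for skeletal muscle markers (832 CPM).

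A gene was called when its Benjamini-Hochberg adjusted p in edgeR's quasi-likelihood test was under 0.05 over all genes tested. Of the 17774 genes, 4188 (23.6%) were called, 1956 (11.0%) higher and 2232 (12.6%) lower in BALB/c tumours. The counts of called list members below stand against these shares. In 2803 genes (15.8%) the 5 libraries of one host lay wholly above the 5 of the other, and 2452 of these were also called. Changes over 4-fold were unevenly split, with 470 called genes higher and 126 lower. The median log2 fold change (BALB/c minus NSG, the sign used throughout) of all genes was 0.08. With offsets that remove trends over GC content and gene length, the split moved to 1619 higher and 3050 lower.

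**Figure D2:**
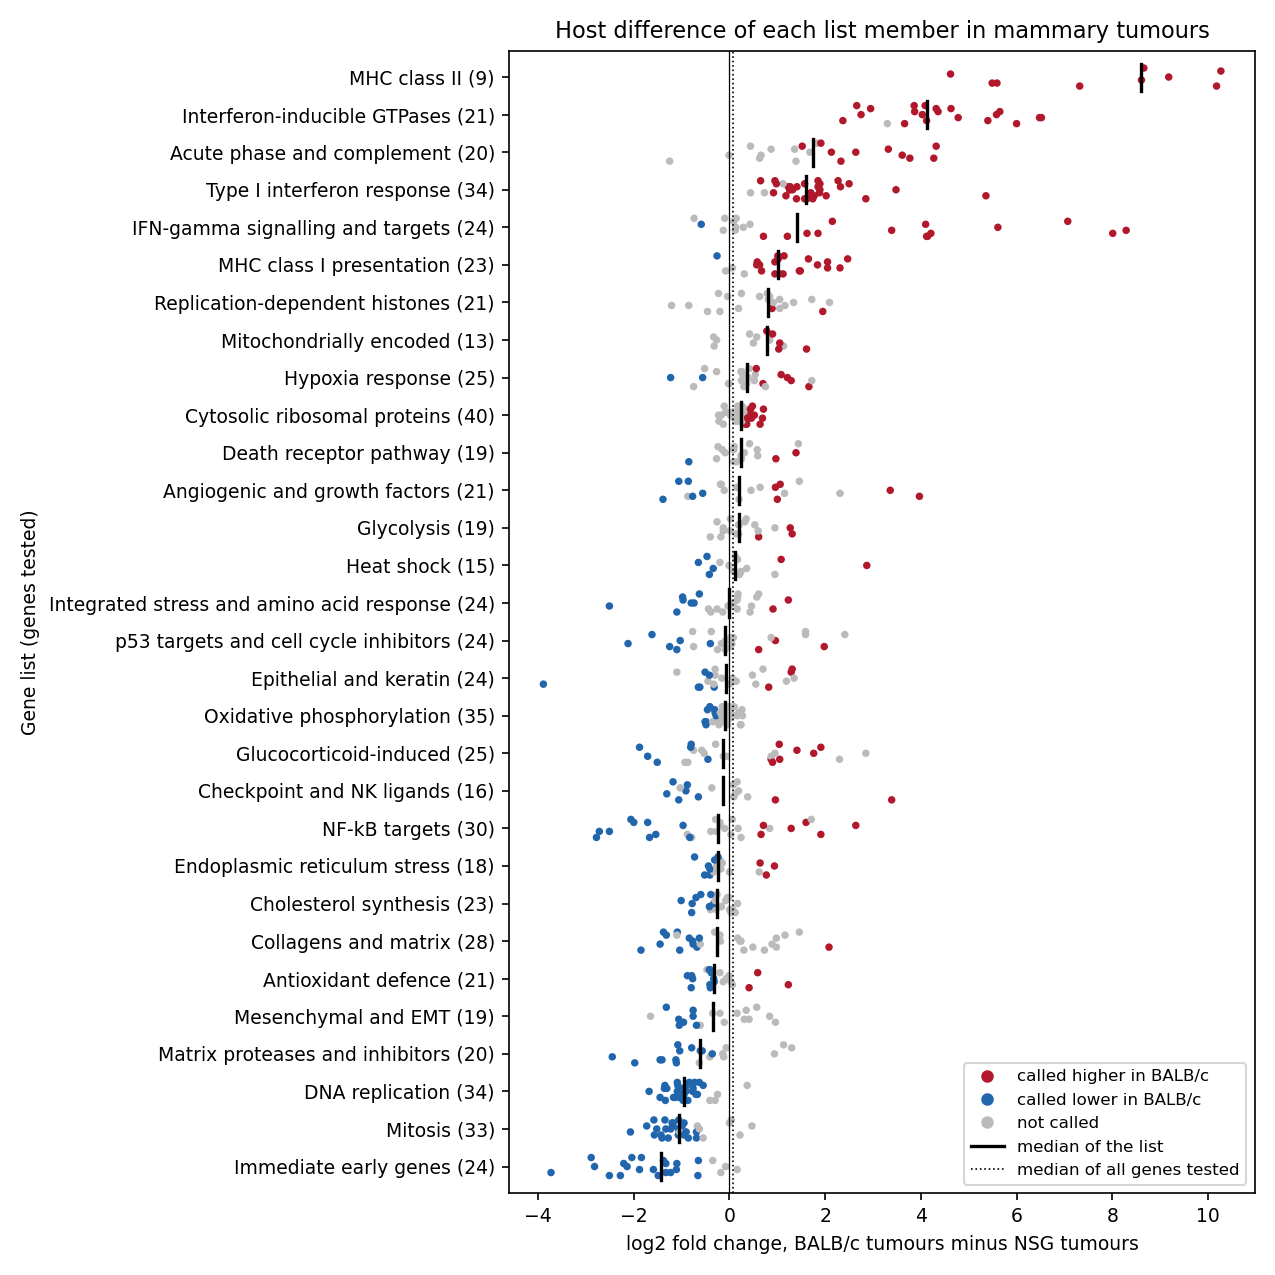
Log2 fold changes (BALB/c minus NSG tumours) of every tested member of the 30 programme lists, coloured by call, with the median of each list and of all genes (0.08). MHC class II genes and interferon-inducible GTPases lie farthest to the right, and replication, mitosis and immediate early genes farthest to the left.

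Promoter windows of interferon-inducible and class II genes, which led the rises, are shown first. Windows are taken from the 250 bases before the RefSeq start site (GRCm38.p6), written 5′ to 3′ on the strand of the gene. In the first 5, capitals mark matches on either strand to TTCNNNGAA, the gamma-activated element of interferon-gamma target genes, or GAAANNGAA, the core bound by IRF factors. Igtp, Irgm2, Tgtp1 and Tgtp2 are immunity-related GTPases at separate places on chromosome 11, Igtp beside Irgm2 and Tgtp1 near Tgtp2, shown because all 4 hold both elements side by side, and Fas is shown as the gene named in the title of the series.
Igtp (chr11:58199496-58199545, + strand): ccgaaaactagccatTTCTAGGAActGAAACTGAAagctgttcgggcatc
Irgm2 (chr11:58214887-58214936, + strand): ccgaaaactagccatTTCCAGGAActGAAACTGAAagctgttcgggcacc
Tgtp1 (chr11:48992300-48992349, - strand): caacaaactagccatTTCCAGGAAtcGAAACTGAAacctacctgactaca
Tgtp2 (chr11:49064259-49064308, - strand): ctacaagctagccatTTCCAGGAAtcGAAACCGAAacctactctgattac
Fas (chr19:34290551-34290589, + strand): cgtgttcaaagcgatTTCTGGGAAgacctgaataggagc
In the class II genes H2-Aa and H2-Eb1, capitals mark CTGATTGG, the Y box of the module through which Ciita acts.
H2-Aa (chr17:34287852-34287919, - strand): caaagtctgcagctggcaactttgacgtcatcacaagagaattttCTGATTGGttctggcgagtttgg
H2-Eb1 (chr17:34305760-34305827, + strand): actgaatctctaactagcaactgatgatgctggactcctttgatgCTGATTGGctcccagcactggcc

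The Igtp and Irgm2 windows differ at 2 of 50 bases. Of the 20 GTPases called higher, 11 had a RefSeq promoter entry, with 12 promoters in all. GAAANNGAA was found in 10 of these 12 promoters (83.3%) and TTCNNNGAA in 6 of 12, against 7.13% and 7.02% of all 32851 RefSeq promoters and 6.35% and 6.00% of those of genes tested. Among promoters of type I interferon response genes called higher, 13 of 26 held GAAANNGAA and 3 of 26 (11.5%) held TTCNNNGAA. For called members of the interferon-gamma list the shares were 4 of 11 (36.4%) and 5 of 11 (45.5%), and for MHC class I genes 4 of 18 (22.2%) and 2 of 18 (11.1%). The Y box, added to the search after the class II values were seen, was in 3 of 7 class II promoters (42.9%), 6 of 18 class I promoters (33.3%) and 2 of 11 of the interferon-gamma list (18.2%), and in none of the GTPase and type I promoters, against 3.83% of all promoters and 4.87% of those of genes tested. These matches describe letters in a fixed window and no binding was measured.

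MHC class II genes showed the largest host difference of any list. All 9 tested members were called higher in BALB/c tumours, all 9 without overlap, with a median log2 fold change of 8.61. H2-Eb1 (chr17:34305867-34316674), the beta chain of the E molecule, measured 1617, 1381, 1312, 663 and 1350 CPM in BALB/c replicates 1 to 5 and 0.630, 1.80, 1.67, 0.688 and 0.753 CPM in NSG replicates 1 to 5. Every BALB/c tumour was far above every NSG tumour, and replicate 4, the library with the most macrophage and B cell markers, was the lowest of the 5. The log2 fold change was 10.18 ± 0.59 (SE of the fit, n = 5 per group, adjusted p = 1.68e-12).

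Cd74, the invariant chain that guards the class II groove, measured 2115, 1820, 1688, 1039 and 1706 CPM in BALB/c tumours and 8.16, 13.0, 14.8, 10.5 and 6.02 CPM in NSG tumours (7.32 ± 0.41, adjusted p = 7.99e-13). H2-DMb1, a subunit of the peptide exchanger H2-DM, had 125 to 264 CPM in BALB/c tumours and 40 counts in all 5 NSG libraries together (10.27 ± 0.62, adjusted p = 2.87e-12). Ciita (chr16:10480059-10528418) had 118, 85.4, 76.8, 45.1 and 103 CPM in BALB/c and 0.918, 3.36, 2.99, 1.02 and 1.32 CPM in NSG tumours (5.49 ± 0.46, adjusted p = 1.40e-09). BALB/c replicate 4 was the lowest of the BALB/c tumours for each of these genes. Replicates 1, 2 and 3, whose macrophage marker sums (33.3 to 60.9 CPM) lay within or near the NSG range, had 1312 to 1617 CPM of H2-Eb1. The part of other cell types in the class II values was not tested. H2-Ea-ps, the alpha chain of the E molecule that the reference strain carries as an inactive allele, was picked out after its values were seen: it had 26663 to 65784 counts per BALB/c library and 1 count in the 5 NSG libraries together. H2-Aa (521 to 997 CPM against 0.631 to 4.32 CPM) and H2-Ab1 (634 to 1302 CPM against 0.692 to 4.82 CPM), the chains of the A molecule, also did not overlap between hosts.

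**Figure D3:**
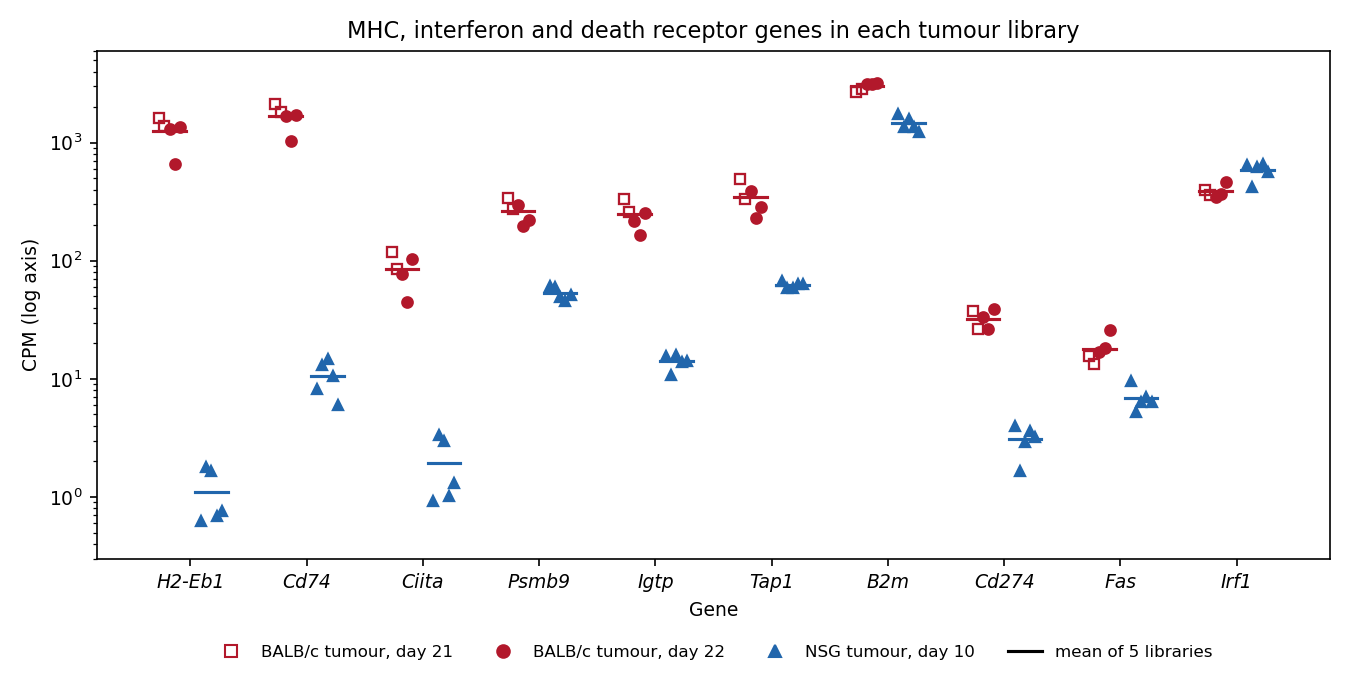
CPM (log axis) of 10 genes in each tumour library, with BALB/c day 21 as open squares, BALB/c day 22 as filled circles and NSG day 10 as triangles; bars are means of 5 libraries. H2-Eb1 separates the hosts most widely, the first 9 genes do not overlap, and Irf1 is lower in BALB/c tumours with overlap.

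In the list of interferon-gamma signalling and targets, 14 of 24 tested members were called higher and 1 lower, with a median of 1.42 (0.96 without 2 genes that had at most 3 counts over a whole group). Cxcl9, a chemokine that draws activated T cells, had 37.8, 33.8, 23.0, 16.0 and 41.2 CPM in BALB/c tumours and at most 0.544 CPM in an NSG tumour (7.07 ± 0.69, adjusted p = 2.15e-08). Its neighbour Cxcl10, often induced with it, had 9.95 to 26.6 CPM in BALB/c and 11.3 to 19.4 CPM in NSG tumours, which overlap (0.29 ± 0.35, adjusted p = 0.583).

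Further up the pathway, Ifngr1 and Ifngr2, the receptor chains, had log2 fold changes of 0.12 ± 0.13 and 0.13 ± 0.12 (adjusted p = 0.542 and 0.478), and Socs1, the feedback inhibitor, had 0.09 ± 0.22 (adjusted p = 0.810); none of the 3 was called. Irf1, an interferon-induced transcription factor, was the member called lower: 398, 361, 348, 367 and 462 CPM in BALB/c tumours against 651, 418, 623, 663 and 564 CPM in NSG tumours. The hosts overlap only through NSG replicate 2 and BALB/c replicate 5. The fold change was -0.59 ± 0.19 (adjusted p = 0.0231), and leaving out 1 of 4 libraries (BALB/c replicate 2 or 3, NSG replicate 1 or 4) or using either BALB/c day alone ended the call, with adjusted p of 0.0501 to 0.143. Ifng itself had 2 counts in the BALB/c libraries together and none in NSG libraries. Cd274, which encodes the checkpoint ligand PD-L1, measured 37.8, 26.2, 33.2, 26.2 and 38.7 CPM in BALB/c and 4.01, 1.66, 2.94, 3.61 and 3.21 CPM in NSG tumours (3.39 ± 0.34, adjusted p = 1.91e-08).

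Class I presentation moved by less and more evenly. Of 23 tested members 19 were called higher and 1 lower (median 1.02). Tap1 (chr17:34187553-34197225), a subunit of the pump that carries peptides into the endoplasmic reticulum, measured 489, 332, 393, 230 and 286 CPM in BALB/c tumours and 67.1, 58.8, 58.9, 63.7 and 63.4 CPM in NSG tumours (2.47 ± 0.21, adjusted p = 1.16e-09). Psmb9, an immunoproteasome subunit transcribed from the opposite strand beside Tap1, had 197 to 342 CPM against 45.5 to 61.5 CPM (2.31 ± 0.18, adjusted p = 2.21e-10). The 2 genes overlap in the annotation and the strand setting of the counts is not given, so reads at their shared end are less certain. B2m, the light chain of class I, had 2675 to 3222 CPM in BALB/c and 1235 to 1759 CPM in NSG tumours (1.04 ± 0.12, adjusted p = 2.78e-07), and the heavy chain H2-K1 had 2348 to 3341 against 1374 to 1481 CPM (1.02 ± 0.12, adjusted p = 2.77e-07). Class I genes were thus expressed in NSG tumours and higher in BALB/c tumours, whereas class II genes were at or below a few CPM in NSG tumours, except Cd74 (6.02 to 14.8 CPM) and H2-DMa (6.52 to 9.26 CPM). The chaperones Calr, Canx and Tapbp were not called.

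Interferon-inducible GTPases, which attack the vacuoles of intracellular microbes, were called higher in 20 of 21 tested members, with a median of 4.12. Igtp had 334, 260, 219, 166 and 256 CPM in BALB/c and 15.7, 10.8, 15.9, 13.9 and 14.3 CPM in NSG tumours (4.12 ± 0.31, adjusted p = 2.27e-10). Irgm2 had 76.0 to 199 CPM against 5.66 to 7.45 CPM (4.36 ± 0.33, adjusted p = 2.27e-10), Tgtp1 40.9 to 70.8 against 2.30 to 3.41 CPM and Tgtp2 30.0 to 50.6 against 1.89 to 4.34 CPM. Igtp, Irgm2, Tgtp1 and Tgtp2 did not overlap between hosts. Of all 21 tested GTPases 19 were without overlap, against 15.8% of all genes. The GTPase windows were drawn only from members called higher, so nothing is read from their paired elements. Tgtp1 and Tgtp2 are near-identical copies and the Igtp and Irgm2 gene models overlap, so how reads were divided within each pair is uncertain. Gbp5, a guanylate-binding protein, was among the 12 largest rises (11.3 to 33.3 against 0.105 to 0.488 CPM, 6.48 ± 0.66, adjusted p = 4.17e-08).

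Type I interferon response genes, the antiviral set, were called higher in 31 of 34 tested members with a smaller median of 1.6. Bst2, a tether of budding viruses, had 265 to 352 CPM in BALB/c and 68.1 to 113 CPM in NSG tumours (1.74 ± 0.20, adjusted p = 1.28e-07). Irf7, which amplifies interferon production, had 28.2 to 58.5 against 10.2 to 15.6 CPM (1.62 ± 0.21, adjusted p = 8.28e-07), and Rtp4 44.9 to 86.6 against 15.1 to 23.3 CPM (1.85 ± 0.23, adjusted p = 5.84e-07). These 3 genes did not overlap between hosts, and BALB/c replicate 2 was highest for Irf7 and Rtp4.

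Beyond these lists, the rises included genes of nitric oxide, complement and acute phase. Nos2, the inducible nitric oxide synthase, measured 83.3, 76.2, 72.8, 13.0 and 38.6 CPM in BALB/c tumours and 0.736 to 1.42 CPM in NSG tumours (5.82 ± 0.59, adjusted p = 4.20e-08). Apol6 had 9.51 to 47.4 against 0.166 to 0.427 CPM (6.91 ± 0.59, adjusted p = 2.61e-09). Pigr, the carrier of IgA across epithelia, varied most, with 20.5, 89.7, 5.61, 2.67 and 47.8 CPM in BALB/c tumours and at most 0.427 CPM in NSG tumours (7.73 ± 1.26, adjusted p = 5.05e-05).

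Of 20 acute phase and complement genes 10 were called higher and none lower (median 1.76). C1s1, a protease of the classical pathway, had 33.9 to 93.0 CPM in BALB/c and 3.58 to 6.78 CPM in NSG tumours (3.77 ± 0.42, adjusted p = 1.42e-07), and its substrate C4b had 76.9 to 185 against 10.5 to 16.1 CPM (3.32 ± 0.36, adjusted p = 8.60e-08). C3, the central component, had 612, 1128, 434, 224 and 1096 CPM in BALB/c against 115 to 190 CPM in NSG tumours (2.13 ± 0.32, adjusted p = 1.32e-05). Lcn2, an iron-siderophore binder, had 683 to 1328 against 230 to 344 CPM (1.91 ± 0.25, adjusted p = 1.6e-06). Summed neutrophil markers were higher in the BALB/c libraries too. The fibroblast sum was also higher, but C3 is itself in that list. C3 gave 612, 1128, 434, 224 and 1096 CPM of sums of 883, 1413, 821, 1082 and 1544 CPM in BALB/c replicates 1 to 5. In NSG replicates 1 to 5 it gave 164, 115, 157, 190 and 172 CPM of 452, 438, 527, 528 and 431 CPM. In BALB/c replicate 4 and all NSG libraries most of the sum came from other markers. Of the 12 fibroblast markers 2 were called higher, C3 among them, and 1 lower, and nothing about fibroblasts is read from the sum. The part of other cell types in these rises was not tested. Col1a1, a collagen of fibroblasts, overlapped between hosts (46.4 to 392 against 76.7 to 132 CPM, adjusted p = 0.741).

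Fas (chr19:34290666-34327772) measured 15.5, 13.3, 17.0, 18.4 and 26.1 CPM in BALB/c tumours and 9.5, 5.25, 6.42, 7.04 and 6.35 CPM in NSG tumours. All BALB/c tumours were above all NSG tumours, and the log2 fold change was 1.39 ± 0.23 (adjusted p = 3.14e-05), with 1.07 for the day 21 tumours alone and 1.58 for the day 22 tumours alone. Of 19 death receptor pathway genes 2 were called higher, Fas and the inhibitor of apoptosis Birc2 (0.97 ± 0.25, adjusted p = 0.00467), and 1, the TRAIL receptor Tnfrsf10b, lower. These shares (10.5% and 5.26%) lay near or below those of all genes (11.0% and 12.6%), so nothing is read from the counts. The adaptor Fadd and the initiator caspase Casp8 were not called.

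Glucocorticoids act through the receptor Nr3c1, which induces a known set of genes. Nr3c1 had 20.9 to 29.8 CPM in BALB/c and 16.9 to 21.6 CPM in NSG tumours (0.30 ± 0.21, adjusted p = 0.326). Fkbp5, a receptor co-chaperone and target, had 157, 99.0, 163, 108 and 120 CPM in BALB/c and 189, 152, 168, 182 and 190 CPM in NSG tumours (-0.45 ± 0.12, adjusted p = 0.00755), with overlap between hosts. Using the day 21 tumours alone gave -0.46 for Fkbp5 with an adjusted p of 0.0545. The targets Tsc22d3 (-0.13 ± 0.21, adjusted p = 0.685) and Per1 (-0.58 ± 0.22, adjusted p = 0.0594) were not called, although Per1 was called without BALB/c replicate 4 (-0.76, adjusted p = 0.0146). Of 25 glucocorticoid-induced genes 7 were called higher and 6 lower (median -0.13), so the list had no common direction. Mt1, a metallothionein, had 108 to 170 against 59.4 to 74.9 CPM (0.90 ± 0.18, adjusted p = 0.000341), while the kinase Sgk1 had 84.1 to 194 against 288 to 405 CPM (-1.51 ± 0.22, adjusted p = 6.35e-06).

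Among genes lower in BALB/c tumours, the immediate early genes, transcription factors and phosphatases that cells induce within minutes of a stimulus, had the most negative median of any list (-1.44). Of 24 tested members 20 were called lower and none higher. Nr4a1 (chr15:101254269-101274795), an orphan nuclear receptor, measured 30.8 and 22.9 CPM in the day 21 tumours, 159, 155 and 116 CPM in the day 22 tumours and 660, 527, 665, 802 and 933 CPM in NSG tumours. The day 21 tumours were below the day 22 tumours, and both were below every NSG tumour. The log2 fold change was -2.89 ± 0.41 (adjusted p = 7.17e-06), -4.74 for day 21 alone and -2.32 for day 22 alone.

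Atf3, a stress-induced repressor, followed the same order of days, with 139 and 133 CPM at day 21, 321, 414 and 639 CPM at day 22 and 1406 to 2110 CPM in NSG tumours (-2.51 ± 0.38, adjusted p = 1.84e-05). Fos and Egr1, the classic members, had 656 to 1428 against 2093 to 2825 CPM (-1.33 ± 0.22, adjusted p = 5.50e-05) and 144 to 490 against 712 to 1164 CPM (-1.38 ± 0.28, adjusted p = 0.000490). In both, the day 21 tumours were the lowest of all 10. Over the list, the median was -2.33 with 21 members called lower for day 21 alone, and -1.09 with 16 called lower for day 22 alone. The 2 sets of BALB/c tumours differ in title number as well as day, which cannot be told apart.

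NF-kB, the transcription factor of inflammatory signalling, has targets that went both ways, 10 of 30 lower and 6 higher in BALB/c tumours (median -0.24). The lower set held feedback inhibitors and cytokines. Tnfaip3, the inhibitor A20, had 46.8, 39.2, 118, 117 and 117 CPM in BALB/c and 395 to 736 CPM in NSG tumours (-2.78 ± 0.33, adjusted p = 6.23e-07), and Nfkbia had 88.5 to 210 against 344 to 554 CPM (-1.71 ± 0.22, adjusted p = 1.09e-06). Csf3, the neutrophil growth factor G-CSF, measured 68.2, 65.8, 43.3, 47.5 and 40.3 CPM in BALB/c and 196, 182, 241, 238 and 247 CPM in NSG tumours (-2.06 ± 0.27, adjusted p = 2.03e-06). Here the day 21 tumours were the higher of the BALB/c group, the reverse of Tnfaip3.

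Further growth factors for myeloid cells were lower as well: Csf2 (1.18 to 12.6 against 16.7 to 27.0 CPM, -2.0 ± 0.40, adjusted p = 0.000442) and Csf1 (87.3 to 170 against 199 to 264 CPM, -0.97 ± 0.16, adjusted p = 4.83e-05). Lif, a cytokine of the IL-6 family, had 39.7 to 113 against 321 to 550 CPM (-2.51 ± 0.32, adjusted p = 1.22e-06), and the neutrophil chemokine Cxcl2 0.506 to 14.4 against 28.4 to 41.2 CPM (-2.72 ± 0.54, adjusted p = 0.000523). None of these 4 overlapped between hosts. The higher set held Lcn2, Saa3 (6.80 to 17.6 against 0.831 to 2.61 CPM, 2.64 ± 0.58, adjusted p = 0.00135), Icam1, Cxcl5, Cxcl16 and Il1a.

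**Figure D4:**
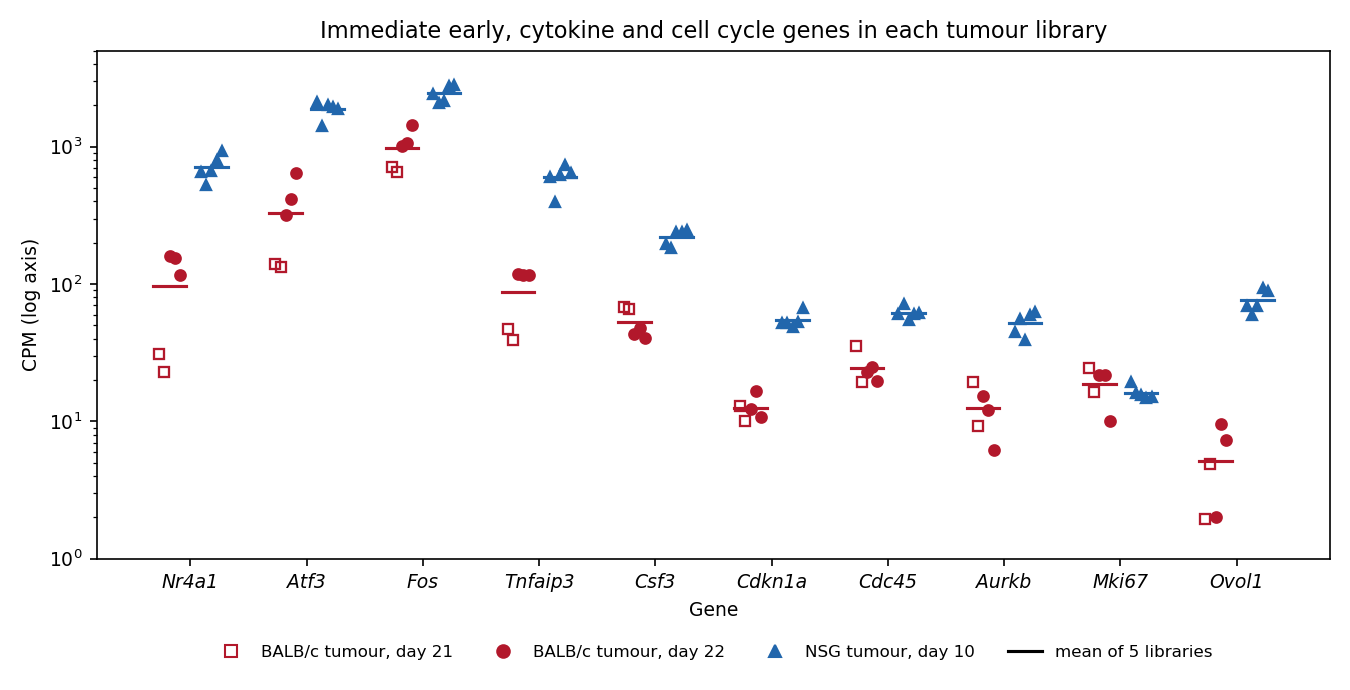
CPM (log axis) of 10 genes in each tumour library, with BALB/c day 21 as open squares, BALB/c day 22 as filled circles and NSG day 10 as triangles; bars are means of 5 libraries. Nr4a1, Atf3, Fos and Tnfaip3 are lowest at day 21, the cell cycle genes Cdc45 and Aurkb do not overlap between hosts, and Mki67 does.

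DNA replication genes were lower in BALB/c tumours in 30 of 34 tested members, all 30 without overlap, and higher in none (median -0.96). Cdc45, part of the replicative helicase, measured 35.2, 19.4, 22.9, 24.8 and 19.8 CPM in BALB/c tumours and 60.2, 71.7, 54.5, 60.6 and 61.5 CPM in NSG tumours (-1.34 ± 0.13, adjusted p = 1.29e-08). Rrm2, the ribonucleotide reductase subunit that supplies nucleotides in S phase, had 12.5 to 38.8 against 80.5 to 114 CPM (-1.68 ± 0.20, adjusted p = 3.11e-07), and the helicase subunit Mcm6 had 123 to 204 against 294 to 364 CPM (-0.95 ± 0.12, adjusted p = 3.47e-07).

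Mitosis genes were lower in 24 of 33 members (median -1.06). Aurkb, a kinase of chromosome segregation, measured 19.5, 9.33, 15.3, 12.1 and 6.15 CPM in BALB/c and 44.7, 55.7, 39.1, 60 and 62.1 CPM in NSG tumours (-2.07 ± 0.20, adjusted p = 6.50e-09), and Cdk1, which drives entry into mitosis, had 28.1 to 66.6 against 109 to 131 CPM (-1.52 ± 0.15, adjusted p = 1.26e-08). BALB/c replicate 5 was lowest for Rrm2, Aurkb and Cdk1. Mki67, the common proliferation marker, was among the 9 members not called. It overlapped between hosts, with 24.3, 16.3, 21.9, 21.8 and 9.99 CPM in BALB/c and 14.8 to 19.2 CPM in NSG tumours (0.22 ± 0.38, adjusted p = 0.712). Cdkn1a, the cyclin-dependent kinase inhibitor p21, was lower together with the cell cycle genes, with 13.0, 10.1, 12.4, 16.6 and 10.7 CPM in BALB/c and 52.3, 52.1, 48.6, 53.1 and 66.4 CPM in NSG tumours (-2.12 ± 0.19, adjusted p = 2.36e-09). Myc, the growth regulator, had 38.2 to 77.1 against 107 to 145 CPM (-1.03 ± 0.15, adjusted p = 8.45e-06).

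Matrix proteases and their inhibitors were lower in 12 of 20 members and higher in none (median -0.62). Plau, the urokinase that activates plasmin, had 65.2 to 134 against 354 to 468 CPM (-1.98 ± 0.19, adjusted p = 4.68e-09), and the membrane protease Mmp14 500 to 663 against 1181 to 1376 CPM (-1.12 ± 0.11, adjusted p = 6.46e-09). Neither overlapped between hosts. Collagens and matrix genes were lower in 11 of 28 members and higher in 1 (Dcn), and Fn1, which encodes fibronectin, had 7552 to 13231 against 13877 to 23539 CPM (-0.76 ± 0.17, adjusted p = 0.00154).

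Of 24 epithelial genes 3 were called higher (12.5%) and 6 lower (25.0%), and of 19 mesenchymal genes 7 were lower (36.8%) and none higher. Over all genes 11.0% were called higher and 12.6% lower. Ovol1, a transcription factor that maintains epithelial identity, was the largest fall under the naming rule, with 1.96, 4.90, 2.00, 9.55 and 7.31 CPM in BALB/c and 69.5, 59.4, 69.7, 93.6 and 89.3 CPM in NSG tumours (-3.89 ± 0.43, adjusted p = 1.84e-07). Cdh1, E-cadherin, was also lower (216 to 413 against 412 to 573 CPM, -0.65 ± 0.16, adjusted p = 0.00254), though with the day 21 tumours alone it was not called (-0.34, adjusted p = 0.273). Vim, the mesenchymal intermediate filament, was lower as well, at 3833, 1490, 4383, 2894 and 1539 CPM against 5434 to 6489 CPM (-1.06 ± 0.20, adjusted p = 0.000261). Bdkrb2, the bradykinin receptor, and Fam83d, a spindle protein, were among the 12 largest falls (-3.03 ± 0.36 and -2.50 ± 0.23, adjusted p = 4.92e-07 and 2.88e-09).

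Of 16 checkpoint and NK ligand genes 2 were called higher, Cd274 and Vsir, and 6 lower. The shares were 12.5% and 37.5%, against 11.0% and 12.6% of all genes. Nt5e, the ectoenzyme CD73 that makes adenosine, had 235 to 412 against 567 to 747 CPM (-1.06 ± 0.15, adjusted p = 3.84e-06), and Pvr, a ligand of the receptors TIGIT and DNAM-1, 28.3 to 40.5 against 47.6 to 73.4 CPM (-0.91 ± 0.13, adjusted p = 2.91e-06). Cd47, the signal against phagocytosis, overlapped between hosts (0.12 ± 0.09, adjusted p = 0.337).

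Metabolic and stress lists moved by less. Of 21 antioxidant genes 3 were higher and 11 lower, catalase (Cat) among the lower (46.1 to 70.5 against 97.4 to 107 CPM, -0.80 ± 0.12, adjusted p = 8.43e-06). Of 23 cholesterol synthesis genes 8 were lower, with Sqle at -0.70 ± 0.16 (adjusted p = 0.00152), but none was called with the day 21 tumours alone. Nuclear oxidative phosphorylation genes were lower in 8 of 35 (median -0.10), with Atp5b at 1131 to 1465 against 1713 to 1837 CPM (-0.49 ± 0.09, adjusted p = 0.000152), whereas 5 of 13 mitochondrially encoded genes were higher, with mt-Nd2 at 1.03 ± 0.23 (adjusted p = 0.00159). None of these 13 was called with the GC and length offsets, and 2 were on leaving out BALB/c replicate 2 or 5 or any of NSG replicates 2 to 5. Cytosolic ribosomal protein genes were higher in 14 of 40 (median 0.25), a count that fell to 0 with the day 21 tumours alone, 7 with the offsets and 2 without the 3 gene-poor libraries. Without BALB/c replicate 4 or 5 it was 7 or 8, and without NSG replicate 2, 4 or 5 it was 8, 9 or 7. Hypoxia genes were mixed, 6 of 25 higher and 2 lower, with Bnip3 at 1.08 ± 0.30 (adjusted p = 0.00860) and the angiogenic factor Vegfa at -0.56 ± 0.16 (adjusted p = 0.0109). Bnip3 was not called with the offsets (0.66, adjusted p = 0.115) and Vegfa was not with the day 21 tumours alone (-0.44, adjusted p = 0.173).

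The host difference in tumours was then set against the host difference in lung macro-mets, where cells had been injected in the tail vein (500000 cells, BALB/c at days 21 and 23, NSG at days 19 and 20, 5 libraries each). The 4 groups share no library, and the test is of the difference between the 2 host differences in the same fit. It called 929 of 17774 genes (5.23%). Site, route and cell number changed together, and the days of the hosts lie closer in macro-mets than in tumours, and these cannot be told apart. Of the interferon lists, 0 of 34 type I interferon genes, 1 of 21 GTPases (Irgm2) and 1 of 24 interferon-gamma genes were called, shares near or below that of all genes, from which nothing is read. The median of the type I list was 1.6 in tumours and 1.52 in macro-mets.

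The lists of cell cycle genes were called well above that share. Of 34 replication genes 25 were called, all lower in the tumour difference, with a median host difference of -0.96 in tumours and -0.14 in macro-mets, and 21 of 33 mitosis genes were called, all in that direction (-1.06 and 0.08). Cdc45 averaged 24.4 ± 6.44 CPM in BALB/c and 61.7 ± 6.23 CPM in NSG tumours but 57.0 and 65.5 CPM in the macro-mets, a difference of -1.14 ± 0.19 (adjusted p = 0.000405). Aurkb averaged 12.5 ± 5.16 and 52.3 ± 10.0 CPM in tumours (SD, n = 5) and 64.3 and 72.0 CPM in macro-mets (-1.91 ± 0.27, adjusted p = 9.70e-05). In both genes the BALB/c tumours had the lowest mean of these 4 groups.

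For Cdkn1a the NSG tumours had the highest mean of the 4, with 12.6 and 54.5 CPM in BALB/c and NSG tumours and 20.5 and 21.6 CPM in macro-mets (-2.04 ± 0.26, adjusted p = 2.92e-05). Ovol1 was also highest in NSG tumours, with 5.15 and 76.3 CPM in tumours and 2.83 and 2.68 CPM in macro-mets (-3.95 ± 0.58, adjusted p = 0.000167). So was Csf3, at 53 and 221 CPM in tumours and 99.9 and 61.1 CPM in macro-mets (-2.77 ± 0.37, adjusted p = 8.46e-05). The BALB/c tumours had the lowest mean of the 4 for Cdkn1a and Csf3 but not for Ovol1. Of 24 immediate early genes 8 were called, all lower in the tumour difference (medians -1.44 and -0.34), with Nr4a1 at -2.21 ± 0.55 (adjusted p = 0.0160). Class II and class I genes differed in the other direction in part, with 3 of 9 and 5 of 23 called higher in the tumour difference. The class II rise was large at both sites (medians 8.61 in tumours and 7.09 in macro-mets), and the class I medians were 1.02 and 0.72. Cd74 differed by 1.75 ± 0.44 (adjusted p = 0.0187), H2-DMb1 by 2.90 ± 0.77 (adjusted p = 0.0239) and Tap1 by 1.25 ± 0.28 (adjusted p = 0.00765), while the class I gene Pdia3 was called in the opposite sense. With limma-voom, Cd74 (adjusted p = 0.0524) and H2-DMb1 (adjusted p = 0.395) were not called. Fas was not called (0.14 ± 0.32, adjusted p = 0.847).

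**Figure D5:**
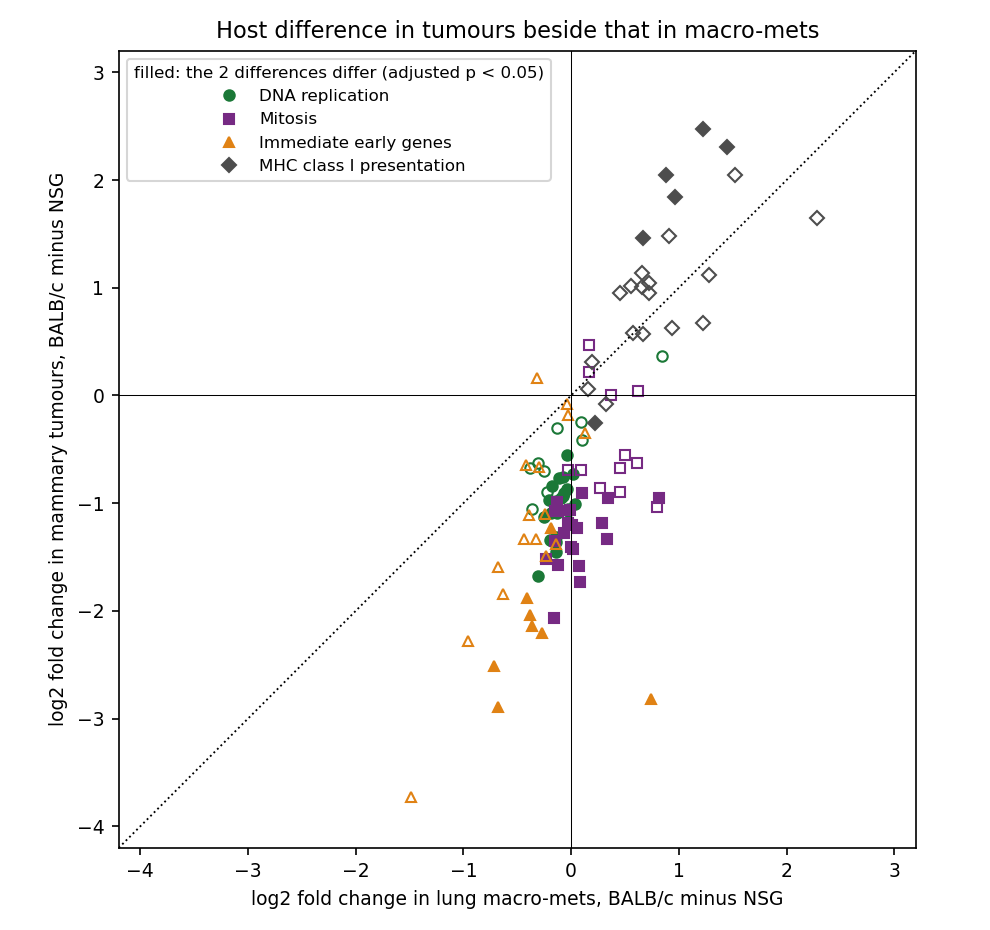
Log2 host difference (BALB/c minus NSG) of members of 4 lists in mammary tumours (vertical axis) against lung macro-mets (horizontal axis); the dotted line marks equal differences and filled symbols are genes for which the 2 differ. Most replication and mitosis genes lie below the line, with medians of -0.14 and 0.08 in macro-mets, though Mki67 and Kif20b lie above it; most MHC class I genes lie near or above it.

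Against lung cells at day 7, labelled DTC, where both hosts were sampled on the same day (5 libraries each), 5944 genes (33.4%) differed in host difference, so members stand against a high background. Departures of log2 CPM from the mean of all 30 libraries trended with GC content differently in the 2 hosts. The rank correlation was -0.594 to -0.311 in NSG DTC and -0.0947 to 0.442 in BALB/c DTC. With gene length it was 0.0833 to 0.253 and -0.204 to -0.0682. The DTC values given here are not corrected for these trends. Replication genes were called in 31 of 34, 30 of them lower in the tumour difference (medians -0.96 in tumours and 0.22 in DTC), and all 13 type I interferon genes called of 34 had the larger rise in tumours (medians 1.6 and 0.92), a count near that background. Levels like those of NSG tumours were also seen in DTC of both hosts for Cdkn1a, with means of 60 CPM in BALB/c and 48.2 CPM in NSG mice. Csf3 had 198 and 119 CPM and Ovol1 28.8 and 33.6 CPM in BALB/c and NSG DTC. Of 9 class II genes 3 were called, all higher in the tumour difference (medians 8.61 in tumours and 7.52 in DTC). Of 23 class I genes 3 were called higher and 6 lower in the tumour difference (medians 1.02 and 1.17). Both counts lie near the background. Cd74 differed by 1.45 (adjusted p = 0.0121), and Fas, at 0.49 (adjusted p = 0.243), was not called.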

How the data were processed

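RNA from sorted 4T1-tdTomato cells was sequenced in bulk. The deposited tables hold raw counts per gene, used for all main results, and TPM, used as an alternative. Trimmomatic 0.36, STAR 2.5.2b and GRCm38/mm10 are named in the submitters' processing notes; the counting tool, strand setting and annotation release are not given in the sources used here. Gene positions come from GENCODE M21 (49056 IDs matched) and promoters from RefSeq (GRCm38.p6).

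Genes were filtered with filterByExpr by group (17774 left, 99.969% of counts). Counts were TMM-scaled and fitted with robust quasi-likelihood models in edgeR 4.0.16 (R 4.3.3) over all 30 libraries with 1 mean per group (24 residual degrees of freedom; the median coefficient of biological variation was 0.269). The fits were tested on simulated data in which few genes changed. There edgeR recovered 41% of 2-fold and 64% of 4-fold changes, with 6 false calls. A gene not called is therefore not shown to be unchanged. Alternatives used DESeq2 1.42.0 and limma 3.58.1. The 30 programme lists, 14 marker lists and all members were chosen with earlier results of these data known. Named genes were Fas, Nr3c1, Fkbp5, Tsc22d3 and Per1, the 12 largest rises and falls without overlap between hosts whose log2 CPM averaged 3 or more, and members of each list by adjusted p or level, of which a part is printed. Ciita, B2m, H2-K1, H2-Ea-ps, Ifng, Ifngr1, Ifngr2, Socs1, Cxcl10, Csf2, Fos, Egr1 and Ptprc were added after their values were seen. Reads are not independent molecules, and depth sets only counting error. Some results are not reported here.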

Additional observations from a re-analysis of the deposited data

Results flagged for a closer look

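Outlying libraries were sought in 174 groups of 5 library values of the genes reported, and 11 held a library far from the other 4; chance flags about 1 in 20 groups. In BALB/c tumours 4 of the 11 came from replicate 4, the library with the fewest genes: Ttn at 650 CPM (next 41.3), Col1a1 at 392 CPM (next 84.6) and Igkc at 8.98 CPM (next 1.13) were highest there, and H2-Ab1 was lowest at 634 CPM (next 1115). Ifng was listed at 0.0332 CPM in BALB/c replicate 5 and at 0 in the other BALB/c libraries. In NSG tumours, replicate 1 was highest for Tsc22d3 (65.3 CPM), H2-K1 (1481 CPM), Nt5e (747 CPM) and H2-Ea-ps (0.0262 CPM, from 1 count), replicate 5 for Cdkn1a (66.4 CPM) and replicate 3 for Ptprc (1.32 CPM).

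Some genes of the report had a host difference in tumours that differed from that at a lung site, by the test of the difference itself. They were chosen with these values known, so their number is no result; over all genes the same test called 5.23% against macro-mets and 33.4% against DTC. Against macro-mets the differences (log2) were 2.90 for H2-DMb1, 1.75 for Cd74, 1.25 for Tap1, -2.77 for Csf3, -2.21 for Nr4a1, -1.14 for Cdc45, -1.91 for Aurkb, -2.04 for Cdkn1a and -3.95 for Ovol1. Against DTC they were 1.45 for Cd74, -2.80 for Csf3, -2.30 for Nr4a1, -1.73 for Cdc45, -2.28 for Aurkb, -2.43 for Cdkn1a and -3.67 for Ovol1.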

How the results depend on the processing

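No paired analysis was possible because the labels pair no tumours across hosts. Leaving out each library in turn gave 1497 to 2074 genes higher and 1831 to 2277 lower. Using only the day 21 BALB/c tumours gave 1342 genes lower against 2232 with both days, and DESeq2 gave 1589 genes for tumours against macro-mets in place of 929; fewer libraries enter the first, and the cause of the second was not tested. The other alternatives kept all 4 counts within 1.5 times. RLE scaling and DESeq2 each moved the median of all genes to 0.105 and the GC and length offsets to -0.030. Leaving out the 3 gene-poor tumour libraries, chosen after seeing the data, gave 1379 higher and 1745 lower.

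Apart from Igkc, signs turned only for values not called in the report: with the offsets Nr3c1 (-0.01), Cd47 (-0.17), Ttn (-0.03) and the tumour-minus-lung differences of Fas (-0.02 for macro-mets, -0.33 for DTC) and Tap1 (0.27 for DTC, and 0.02 with limma-voom); with day 21 alone Tsc22d3 (0.02), Lyz2 (-0.21), Ttn (-0.84), Col1a1 (-0.81) and Cxcl10 (-0.61); with day 22 alone Ifngr2 (-0.03) and Socs1 (-0.04); without the gene-poor libraries Cxcl10 (-0.05) and Col1a1 (-0.60). Col1a1 also turned with limma-voom (-0.26) and with log2 TPM (-0.24 with a pseudocount of 0.1, -0.23 with 1). Leaving out 1 library gave -0.85 to 2.02 for Ttn and -0.75 to 0.44 for Col1a1, both lowest without BALB/c replicate 4. Igkc, called higher with both days and counted mostly in that replicate, was 0.00 with day 21 alone.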
